A study of Mus musculus with 16 samples.

Results

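Excitatory neuron identity genes, 9 in all, were followed across cultured mouse neurons that carried an empty vector or 1 of 3 hairpin vectors. They are listed as markers of the glutamate-releasing neurons of the forebrain, but Bcl11b also marks striatal neurons. Whether the others are confined to glutamate-releasing neurons in these cultures was not tested. They are the vesicular glutamate transporter genes Slc17a7 and Slc17a6, the basic helix-loop-helix factor genes Neurod1, Neurod2 and Neurod6, and the transcription factor genes Tbr1, Cux2, Bcl11b and Mef2c. They were given as a list of symbols, drawn up with earlier results of these data known, and each was matched by Ensembl identifier to 1 of the 55335 rows of the count table. All 9 passed the filter on low counts, as did 19479 genes in all. RNA was sequenced from primary neuronal cultures of perinatal mouse forebrain, and every group had been transduced with a lentiviral vector. The 4 groups had 4 libraries each: a vector with no hairpin (Empty_Vector), a vector with a short hairpin RNA (shRNA, here the unmutated hairpin), and vectors with that hairpin changed by 2 (shRNA_2bp) or 5 (shRNA_5bp) point mutations. A short hairpin RNA is cut by the microRNA machinery of the cell into a guide that silences matching transcripts, and hairpins with mismatches often serve as controls. The labels name neither the target, the promoter of the vector, the mouse strain nor the time after transduction, and they leave unsaid whether replicate libraries are separate cultures, so the p-values cover the spread between libraries, which may be technical.

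Excitatory neurons release glutamate from vesicles that are loaded by a vesicular transporter. Slc17a7 (VGLUT1) is the main transporter gene of the mature cortex and hippocampus, and Slc17a6 (VGLUT2) is best known from the thalamus, other subcortical regions and the immature cortex. The NeuroD factors bind the E-box, a short DNA motif, as partners of the E proteins and drive the differentiation of cortical excitatory neurons. Tbr1 marks and specifies early-born, deep-layer neurons, Cux2 marks upper-layer neurons, Bcl11b (Ctip2) marks deep-layer neurons that project below the cortex and also striatal neurons, and Mef2c is a calcium-responsive factor that controls synapse number.

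Each library held 33795369 to 49824569 counts, and the 9 genes had between 646 and 43546 counts in every library. The cultures carried neuronal markers throughout: the summed level of 20 pan-neuronal genes was 10700 to 13250 counts-per-million (CPM, scaled with TMM factors) over the 16 libraries. RNA of other cell types was also present, with the astrocyte gene Gfap between 22.9 and 151 CPM and summed levels of 55.1 to 106.5 CPM for 7 measured oligodendrocyte lineage genes, 11.04 to 17.85 CPM for 4 microglial genes and 5.38 to 20.5 CPM for 7 endothelial and mural genes. Single markers of these types were near 0: the endothelial Cldn5 and the microglial C1qa had at most 1 count in a library and the oligodendrocyte factor Sox10 at most 2, while the microglial Aif1 reached 32 counts. These are bulk samples, so fewer cells of a type and less RNA per cell cannot be told apart. Rtn4, named here after its values were seen, was at 837 to 891 CPM with the empty vector and 29.9 to 31.3 CPM with the unmutated hairpin. It was at 122 to 130 CPM with the 2-mutation hairpin and 773 to 856 CPM with the 5-mutation hairpin. Some libraries stood apart, and for some of the 9 genes values are also given without them. Replicate 3 of the unmutated hairpin and replicate 3 of the 5-mutation hairpin had the highest sums of 10 activity-regulated genes in their groups (432 against 206 to 222 CPM, and 619.7 against 280.3 to 400.3 CPM). The latter library also had 214 CPM of fibrillar collagen and fibronectin RNA against 36.4 to 58.4 CPM in the rest of its group. It held the 20.5 CPM of endothelial and mural RNA, against 6.57 to 12.1 CPM in the rest of its group. Both of those lists were drawn up after the values were seen. The libraries numbered 2 had the highest summed level of striatal and of inhibitory genes in each group, as given with Bcl11b.

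Of the 9 genes, 7 passed the threshold (edgeR quasi-likelihood test, Benjamini-Hochberg adjusted p below 0.05 over all 19479 genes) with each hairpin against the empty vector, but not the same 7 and not in the same directions. With the unmutated hairpin, where 40.3% of all genes were called, 3 of the 9 rose (20.8% of all genes) and 4 fell (19.5%), and the libraries of the groups did not overlap for 6 (38.4%). With the 2-mutation hairpin, where 63.3% of all genes were called, 5 rose (32.5%) and 2 fell (30.8%), and the groups did not overlap for 7 (60.1%). With the 5-mutation hairpin, where 54.9% were called, 1 rose (28.4%) and 6 fell (26.5%), and the groups did not overlap for 6 (48.1%). Since so many genes were called, a count of 7 in 9 is in itself no result about these genes. The median log2 fold change of the 9 genes was −0.095, 0.25 and −0.24 for the unmutated, 2-mutation and 5-mutation hairpins, beside 0.014, −0.010 and 0.029 for all genes tested. The median absolute change was 0.37, 0.84 and 0.37, beside 0.23, 0.42 and 0.32. The 3 comparisons share the empty-vector libraries, so they are not independent of each other.

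The hairpins also differed from each other at these genes. Between the 2-mutation and the unmutated hairpin, 7 of the 9 passed against 62.7% of all genes, 6 higher (31.5%) and 1 lower (31.2%) with the 2-mutation hairpin. Between the 5-mutation and the unmutated hairpin, 7 passed against 55.3%, 3 higher (28.5%) and 4 lower (26.8%) with the 5-mutation hairpin. Between the 5-mutation and the 2-mutation hairpin, 7 passed against 65.9%, 1 higher (33.6%) and 6 lower (32.3%) with the 5-mutation hairpin. Scaling by total counts in place of TMM moved the share of higher calls among all calls from 51.6% to 63.9% for the unmutated hairpin against the empty vector, from 50.3% to 40.2% for the 2-mutation against the unmutated hairpin, and from 51.0% to 61.5% for the 5-mutation against the 2-mutation hairpin. In the 2 comparisons between hairpins just named it moved the median change of all genes from −0.020 to −0.14 and from 0.046 to 0.18. No called change of the 9 genes turned direction under total-count scaling, RLE factors or DESeq2.

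**Figure D1:**
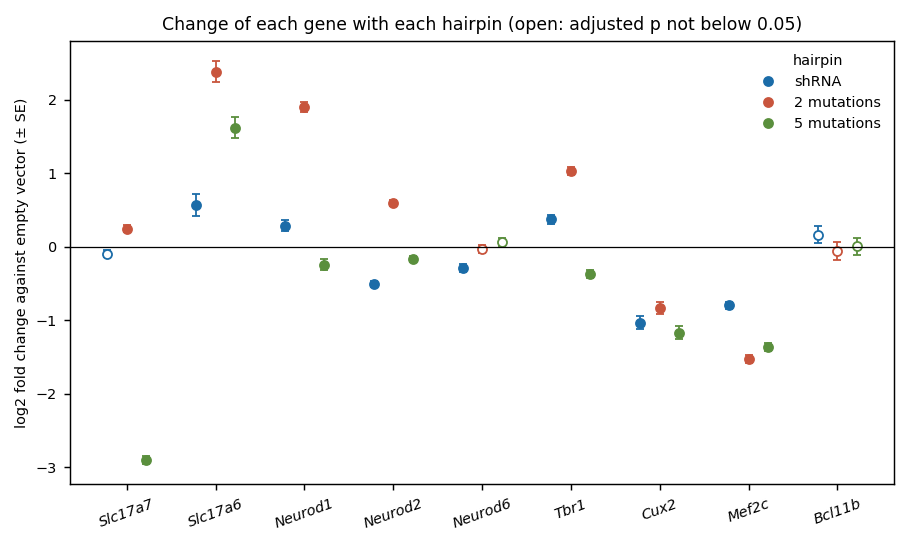
Log2 fold change of each of the 9 genes with each hairpin against the empty vector (vertical axis; whiskers, SE), with open points where the adjusted p was not below 0.05. Slc17a6 lies above 0 and Cux2 and Mef2c lie below 0 with every hairpin, Slc17a7 stands at −2.90 with the 5-mutation hairpin, and Bcl11b lies between −0.062 and 0.16.

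The vesicular glutamate transporter genes moved in opposite directions with the 5-mutation hairpin. Slc17a7 (ENSMUSG00000070570.5; GRCm38 chromosome 7, 45163949 to 45176142, plus strand) fell 7.49-fold there and was nearly level with the empty vector under the unmutated hairpin. Slc17a6 (ENSMUSG00000030500.6; chromosome 7, 51622006 to 51671119, plus strand) rose with every hairpin, 1.48-fold under the unmutated, 5.21-fold under the 2-mutation and 3.07-fold with the 5-mutation hairpin. These paralogs lie on the same chromosome and encode transporters of the same function.

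The reference promoters of both genes are shown because these paralogs diverged. They are the 300 bases from 250 before to 50 after a start in RefSeq on GRCm38.p6, written 5′ to 3′ on the gene's strand, and capitals mark E-boxes (CANNTG, which reads the same on both strands). The first of the RefSeq starts of Slc17a6 is shown.
Slc17a7 (chr7:45163671-45163970, plus strand): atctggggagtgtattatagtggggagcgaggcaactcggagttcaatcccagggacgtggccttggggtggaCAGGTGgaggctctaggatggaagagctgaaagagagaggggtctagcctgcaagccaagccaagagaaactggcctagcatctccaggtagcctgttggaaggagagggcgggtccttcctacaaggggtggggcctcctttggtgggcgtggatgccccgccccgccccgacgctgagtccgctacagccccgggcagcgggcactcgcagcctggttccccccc
Slc17a6 (chr7:51621580-51621879, plus strand): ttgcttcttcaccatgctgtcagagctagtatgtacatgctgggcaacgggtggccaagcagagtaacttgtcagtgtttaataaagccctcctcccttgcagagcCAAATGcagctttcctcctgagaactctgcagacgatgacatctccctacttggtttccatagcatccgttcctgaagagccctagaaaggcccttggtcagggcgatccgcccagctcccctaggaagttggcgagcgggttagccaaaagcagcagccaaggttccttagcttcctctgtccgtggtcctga
The Slc17a7 promoter had 63.7% GC and 3 matches to GGGCGG on either strand, a motif bound by SP1-type factors, and the Slc17a6 promoter had 53.7% GC and 1 match. Each had 1 E-box, CAGGTG in Slc17a7 and CAAATG in Slc17a6. Of 32851 RefSeq promoters of this length, 72.3% held CANNTG and 35.7% held GGGCGG, so neither motif sets these promoters apart, and a match is a description of letters only.

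Slc17a7 was measured at 620.4, 588.5, 592 and 646 CPM in the 4 empty-vector libraries and at 596, 531, 565 and 598 CPM with the unmutated hairpin. It was at 748, 693.5, 715 and 744 CPM with the 2-mutation hairpin and 86.4, 74.3, 86.3 and 79.8 CPM with the 5-mutation hairpin. The 5-mutation libraries were all far below every other library, the 2-mutation libraries were all above the rest, and the empty-vector and unmutated-hairpin libraries overlapped. The mean fell from 612 ± 27.1 CPM (SD, n = 4) to 81.7 ± 5.81 CPM with the 5-mutation hairpin (log2 fold change −2.90 with an SE of 0.055, edgeR adjusted p = 3.78e-20). Among the 2411 genes with a mean of at least 100 CPM in the empty-vector libraries, this was the second greatest fall, and it was number 53 from the bottom among all 19479. With the 2-mutation hairpin Slc17a7 rose to 725 ± 25.7 CPM, a log2 change of 0.25 ± 0.05 (edgeR adjusted p = 0.000204). With the unmutated hairpin the change was −0.095 ± 0.05 and did not pass (adjusted p = 0.144), with a 95% interval of −0.20 to 0.010. It passed with protein-coding genes only (−0.11, adjusted p = 0.0457) and with the library number as a block in the fit (−0.096, edgeR adjusted p = 0.0351). Between the hairpins, the 5-mutation level was 8.88-fold below the 2-mutation level (−3.15 ± 0.055, edgeR adjusted p = 2.08e-21) and 7.01-fold below the unmutated level (−2.81 ± 0.055, adjusted p = 4.82e-20). The 2-mutation level was above the unmutated level by 0.34 ± 0.05 (adjusted p = 3.71e-06), or by 0.22 under total-count scaling.

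Slc17a6 was measured at 25.3, 26.65, 25.9 and 28.2 CPM with the empty vector and 32.8, 33.65, 56.9 and 33.6 CPM with the unmutated hairpin. It was at 129.5, 136, 148 and 139 CPM with the 2-mutation hairpin and 83.8, 80.35, 85.7 and 76.0 CPM with the 5-mutation hairpin. None of the 4 groups overlapped, and their order from low to high was empty vector, unmutated, 5-mutation and 2-mutation hairpin. The mean rose from 26.5 ± 1.25 CPM to 138 ± 7.70 CPM with the 2-mutation hairpin, a log2 change of 2.38 ± 0.15 (edgeR adjusted p = 2.72e-09), which was number 126 from the top among all genes. It rose to 81.45 ± 4.26 CPM with the 5-mutation hairpin, a log2 change of 1.62 ± 0.145 (edgeR adjusted p = 2.7e-07). The unmutated hairpin gave a mean of 39.2 ± 11.8 CPM, a log2 change of 0.565 ± 0.15 (edgeR adjusted p = 0.00686). This value rests in part on replicate 3 of the unmutated hairpin, at 56.9 CPM: without it the change was 0.33 (adjusted p = 5.51e-05). In a fit of those groups alone it was 0.57 (adjusted p = 0.0587). The 5-mutation level was below the 2-mutation level (−0.76 ± 0.14, edgeR adjusted p = 0.000185), and both were above the unmutated level (1.05 and 1.82, adjusted p = 1.76e-05 and 3.88e-08).

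**Figure D2:**
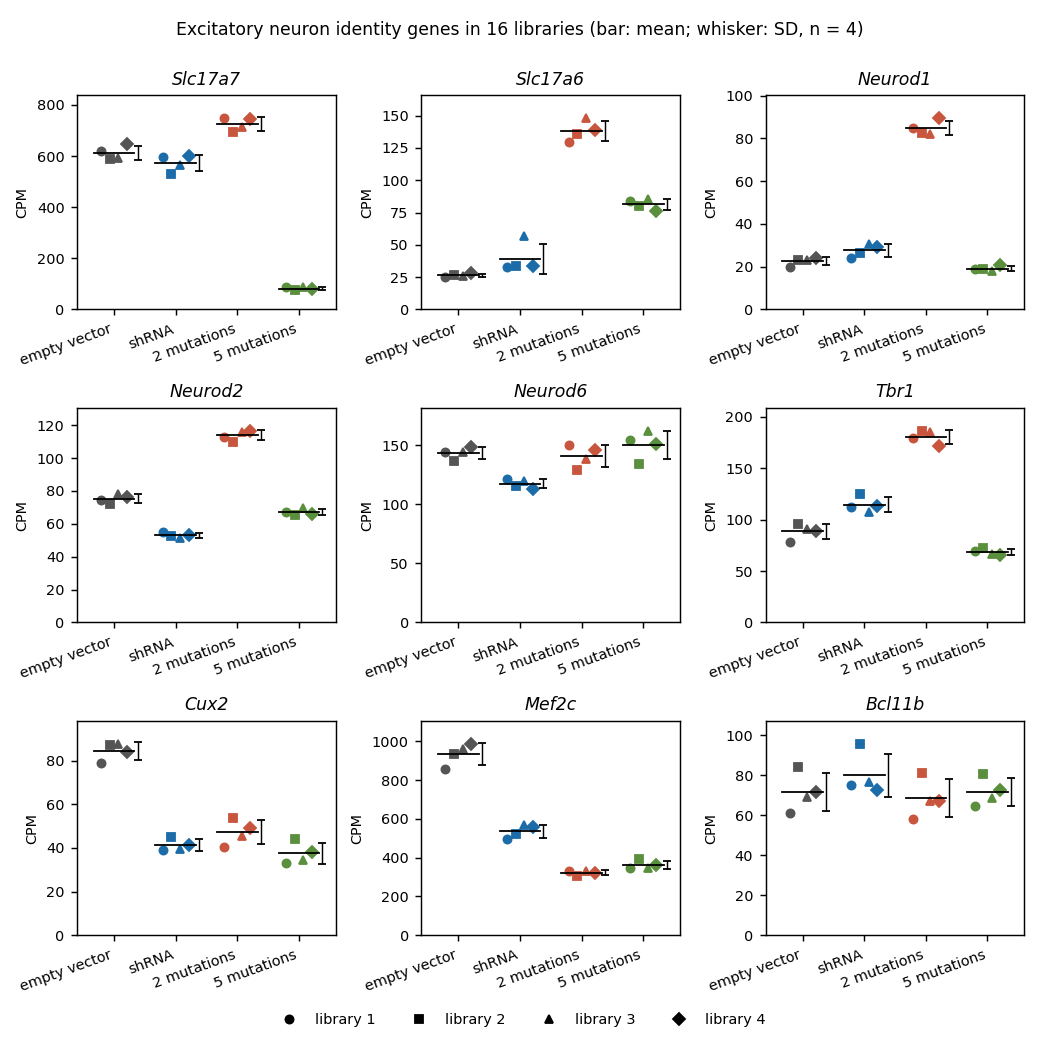
CPM of each of the 9 genes in each of the 16 libraries (points; the marker shape gives the library number), with the mean of each group (bar) and its SD (whisker, n = 4), on axes that start at 0. The 4 libraries of the 5-mutation hairpin lie at 74.3 to 86.4 CPM of Slc17a7, and replicate 3 of the unmutated hairpin lies at 56.9 CPM of Slc17a6.

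Per kilobase of exon, which allows levels of different genes to be compared, Slc17a7 had a mean of 113 CPM and Slc17a6 of 4.91 CPM with the empty vector. With the 5-mutation hairpin they were level, at 15.15 and 15.1 CPM per kilobase. Slc17a6 thus made up 4.15 ± 0.175% (SD, n = 4) of the RNA of both transporters with the empty vector, 6.40 ± 1.85% under the unmutated and 49.9 ± 1.41% under the 5-mutation hairpin. With the 2-mutation hairpin the share was 14.7, 16.4, 17.1 and 15.7% in the 4 libraries. These shares are taken within a library and do not depend on scaling between libraries. The groups did not overlap: the shares ran from 3.91% to 4.33%, 5.21% to 9.13%, 14.7% to 17.1% and 48.7% to 51.9%. The sum of both transporters was 118 ± 5.155 CPM per kilobase with the empty vector and 113.5 ± 5.855 with the unmutated hairpin. It was 160.1 ± 4.47 under the 2-mutation and 30.2 ± 1.70 with the 5-mutation hairpin. The remaining member of the family, Slc17a8 (VGLUT3), known from scattered cortical and raphe neurons, ran from 3.04 to 3.82 CPM with the empty vector and from 7.54 to 11.4 CPM with the 5-mutation hairpin.

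**Figure D3:**
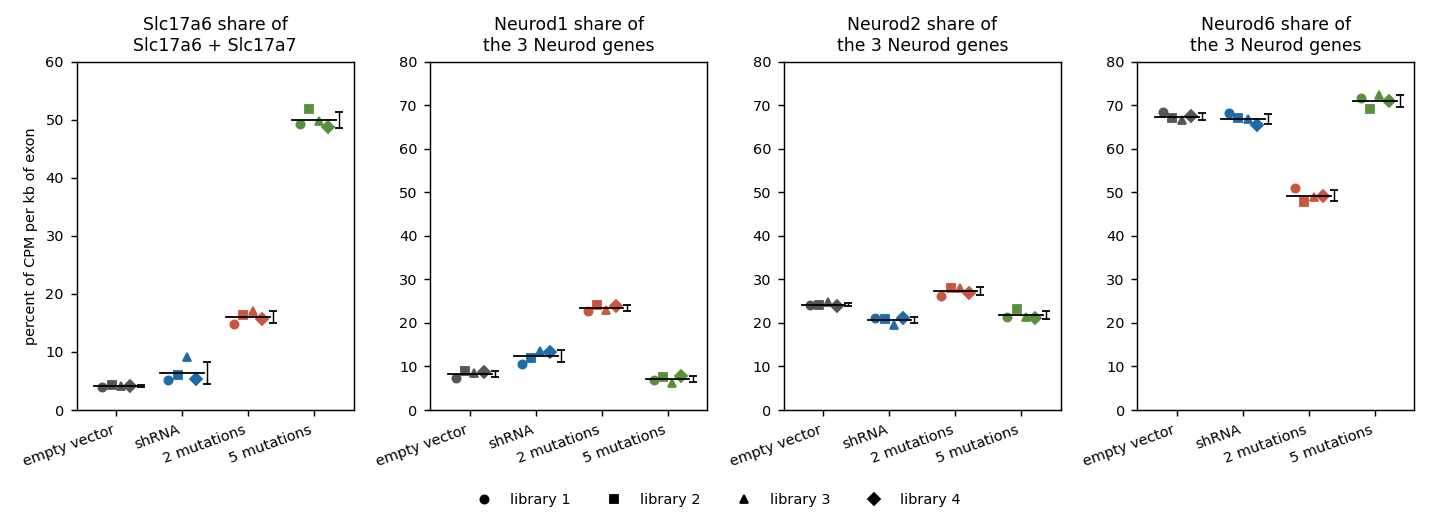
Share of Slc17a6 in the RNA of Slc17a6 and Slc17a7, and shares of Neurod1, Neurod2 and Neurod6 in the RNA of those 3 genes, in percent of CPM per kilobase of exon (points, libraries; bar, mean; whisker, SD, n = 4). The Slc17a6 share reaches 49.9% with the 5-mutation hairpin, and the Neurod1 share reaches 23.4% with the 2-mutation hairpin.

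Of the NeuroD factor genes, Neurod1 and Neurod2 were highest with the 2-mutation hairpin and Neurod6 changed little. Neurod1 (ENSMUSG00000034701.9; chromosome 2, 79452521 to 79456751, minus strand) rose 3.74-fold with the 2-mutation hairpin. Neurod2 (ENSMUSG00000038255.6; chromosome 11, 98325415 to 98329648, minus strand) rose 1.51-fold with the 2-mutation hairpin and fell 1.42-fold with the unmutated hairpin. Neurod6 (ENSMUSG00000037984.9; chromosome 6, 55677822 to 55681263, minus strand) fell 1.22-fold with the unmutated hairpin and did not pass with either mutated hairpin, although with the 5-mutation hairpin this depended on the scaling and on 1 library. All of these factors act in postmitotic or newly postmitotic neurons, Neurod1 earliest in the cortical lineage.

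Neurod1 was measured at 19.7, 23.3, 23.3 and 24.25 CPM with the empty vector and 24.03, 26.4, 30.6 and 29.4 CPM with the unmutated hairpin. It was at 85.1, 82.6, 82.1 and 89.4 CPM with the 2-mutation hairpin and 18.85, 18.7, 18.0 and 21.0 CPM with the 5-mutation hairpin. Only the 2-mutation libraries stood clear of the rest, while the empty-vector libraries overlapped both the unmutated and the 5-mutation libraries. The log2 fold change against the empty vector was 1.90 ± 0.071 with the 2-mutation hairpin (edgeR adjusted p = 1.33e-15) and 0.29 ± 0.072 with the unmutated hairpin (adjusted p = 0.00301). With the 5-mutation hairpin it was −0.24 ± 0.073 (edgeR adjusted p = 0.00748), a call that was lost under total-count scaling (−0.16, adjusted p = 0.0545) and without the libraries numbered 2 (−0.22, adjusted p = 0.0594). The 2-mutation level exceeded the unmutated level by 1.62 ± 0.07 and the 5-mutation level lay 4.43-fold below it (edgeR adjusted p = 1.4e-14 and 1.4e-16). The exons of Neurod1 overlap those of Cerkl on the same strand, so their reads can be confused, but Cerkl was at 0.723 to 2.10 CPM over all libraries.

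Neurod2 ran from 71.9 to 78.1 CPM with the empty vector, 51.3 to 54.9 under the unmutated, 109.8 to 116 under the 2-mutation and 65.6 to 69.7 CPM with the 5-mutation hairpin, and no groups overlapped. Its log2 fold changes against the empty vector were −0.51 ± 0.039, 0.59 ± 0.039 and −0.17 ± 0.039 in that order (edgeR adjusted p = 9.25e-10, 8.96e-12 and 0.000936). The 5-mutation value was −0.088 under total-count scaling (adjusted p = 0.0324). Neurod2 therefore moved in opposite directions with the unmutated and the 2-mutation hairpin, which differed by 1.10 ± 0.039 (edgeR adjusted p = 2.86e-16). Neurod6 ran from 137 to 149 CPM with the empty vector, 113 to 121 under the unmutated, 129 to 150 under the 2-mutation and 134 to 162 CPM with the 5-mutation hairpin. The unmutated-hairpin libraries were all below every other library, a log2 change of −0.29 ± 0.054 (edgeR adjusted p = 0.000157). The mutated hairpins gave 95% intervals of −0.14 to 0.083 and −0.043 to 0.18 (adjusted p = 0.67 and 0.301), so changes beyond those bounds lie outside the intervals. The 5-mutation value of 0.068 ± 0.053 passed under total-count scaling (0.14, edgeR adjusted p = 0.00854) and without replicate 2 of that group (0.12, adjusted p = 0.0359). Between the mutated hairpins Neurod6 differed by 0.095 ± 0.053 and did not pass (adjusted p = 0.121), but it passed under total-count scaling (0.23, adjusted p = 0.000113), with protein-coding genes only (0.14, adjusted p = 0.0102) and without replicate 2 of the 5-mutation hairpin (0.15, adjusted p = 0.00891). That difference passed too with the library number as a block in the fit (0.095, edgeR adjusted p = 0.0447). Neurod6 was above the unmutated level with both mutated hairpins (0.26 and 0.36, edgeR adjusted p = 0.000199 and 6.31e-06), the former by 0.14 under total-count scaling.

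Per kilobase of exon, Neurod6 was the most abundant of the NeuroD genes in every group. It made up 67.4 ± 0.738% (SD, n = 4) of their summed RNA with the empty vector, 66.9 ± 1.11% under the unmutated, 49.3 ± 1.29% under the 2-mutation and 71.1 ± 1.37% with the 5-mutation hairpin. The share of Neurod1 was 8.37 ± 0.705%, 12.4 ± 1.34%, 23.4 ± 0.701% and 7.15 ± 0.6735% in the same order. The share of Neurod2 moved least, between means of 20.7% and 27.3%. The summed level was 133 ± 5.835 CPM per kilobase with the 2-mutation hairpin, against 99.0 ± 3.10 with the empty vector, 81.65 ± 1.49 with the unmutated and 98.4 ± 5.96 with the 5-mutation hairpin.

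Of the factors that mark cortical layers, Tbr1 followed the same order of groups as Neurod1, Cux2 fell with every hairpin, and Bcl11b passed in no comparison of the fit over all 16 libraries but in some under other settings. Tbr1 (ENSMUSG00000035033.15; chromosome 2, 61802930 to 61814114, plus strand) was 2.04-fold higher under the 2-mutation and 1.29-fold lower with the 5-mutation hairpin. Cux2 (ENSMUSG00000042589.18; chromosome 5, 121856366 to 122050102, minus strand) fell 2.05-fold, 1.79-fold and 2.25-fold under the unmutated, 2-mutation and 5-mutation hairpins. Bcl11b (ENSMUSG00000048251.15; chromosome 12, 107910403 to 108003602, minus strand) kept group means between 68.4 and 79.9 CPM.

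Over the 16 libraries Neurod1 and Tbr1 had the highest correlation of any pair of the 9 genes (Pearson's r of log2 CPM 0.94). The libraries share their groups, and of the deviations from the group means r was 0.038. Their reference promoters are shown on that account, from RefSeq on GRCm38.p6 and in the same layout, with E-boxes in capitals.
Neurod1 (chr2:79456587-79456886, minus strand): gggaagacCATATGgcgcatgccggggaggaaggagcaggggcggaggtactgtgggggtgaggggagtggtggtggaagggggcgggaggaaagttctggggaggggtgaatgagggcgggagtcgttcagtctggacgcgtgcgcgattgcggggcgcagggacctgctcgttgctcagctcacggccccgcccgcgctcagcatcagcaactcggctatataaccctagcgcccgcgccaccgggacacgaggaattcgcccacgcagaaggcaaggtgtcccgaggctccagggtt
Tbr1 (chr2:61804203-61804502, plus strand): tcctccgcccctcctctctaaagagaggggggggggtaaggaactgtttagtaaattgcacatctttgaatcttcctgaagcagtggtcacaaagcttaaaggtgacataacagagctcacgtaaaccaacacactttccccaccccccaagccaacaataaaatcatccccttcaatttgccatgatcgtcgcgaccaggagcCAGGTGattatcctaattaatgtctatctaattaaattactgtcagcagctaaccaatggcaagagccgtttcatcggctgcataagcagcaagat
Each window held 1 E-box, CATATG in Neurod1 and CAGGTG in Tbr1, beside 72.3% of all promoters with at least 1. The Neurod1 window had 66.7% GC and 4 matches to GGGCGG, and the Tbr1 window had 46.0% GC and 1 match. All 9 genes were found among the RefSeq promoters, with 13 starts. Only the Bcl11b window and 1 of the Mef2c windows held no CANNTG, which says nothing about binding.

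Tbr1 was measured at 78.5, 96.2, 90.6 and 89.1 CPM with the empty vector and 112, 125, 108 and 113 CPM with the unmutated hairpin. It was at 179, 186, 186 and 172 CPM with the 2-mutation hairpin and 69.6, 72.5, 66.9 and 65.2 CPM with the 5-mutation hairpin. The 4 groups did not overlap, and their order from low to high was 5-mutation hairpin, empty vector, unmutated hairpin and 2-mutation hairpin. The log2 fold changes against the empty vector were 0.37 ± 0.056, 1.03 ± 0.056 and −0.37 ± 0.057 for the unmutated, 2-mutation and 5-mutation hairpins (edgeR adjusted p = 1.4e-05, 4.43e-13 and 8.27e-06). The mutated hairpins thus had opposite signs, and they differed from each other by −1.40 ± 0.057 (edgeR adjusted p = 1.83e-15).

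Cux2 was measured at 78.8, 87.1, 87.65 and 84.0 CPM with the empty vector and 38.9, 44.9, 39.4 and 41.5 CPM with the unmutated hairpin. It was at 40.6, 53.8, 45.7 and 48.9 CPM with the 2-mutation hairpin and 33.2, 44.1, 34.6 and 38.1 CPM with the 5-mutation hairpin. Every empty-vector library was above every hairpin library, and the hairpin groups overlapped one another. The log2 fold changes were −1.035 ± 0.086, −0.84 ± 0.085 and −1.17 ± 0.086 (edgeR adjusted p = 2.72e-08, 1e-07 and 1.98e-09). Between hairpins, the 5-mutation level was below the 2-mutation level by −0.33 ± 0.087 (edgeR adjusted p = 0.00259), a call that was lost under total-count scaling (−0.195, adjusted p = 0.0884). The unmutated level did not differ from either by the test (adjusted p = 0.0559 and 0.209), with 95% intervals of 0.015 to 0.38 for the 2-mutation and −0.32 to 0.050 for the 5-mutation hairpin. The former was called by DESeq2 (0.21, adjusted p = 0.0371), with RLE factors (0.21, adjusted p = 0.0425), with no filter on low counts (0.20, adjusted p = 0.0015), without replicate 2 of the unmutated hairpin (0.24, adjusted p = 0.0314), without replicate 1 of the 2-mutation hairpin (0.27, adjusted p = 0.00846) and without all libraries numbered 2 (0.18, adjusted p = 0.0309). The latter, −0.13 ± 0.087, was called without replicate 2 of the 5-mutation hairpin (−0.22, adjusted p = 0.0221) and without all libraries numbered 2 (−0.18, adjusted p = 0.0369). Both were called with the library number as a block in the fit (0.195 and −0.138, edgeR adjusted p = 0.00127 and 0.0204). The annotation has 2 antisense genes within Cux2, with exons apart from its own.

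Because Tbr1 and Cux2 mark different layers, their ratio was taken within each library. The log2 ratio of Cux2 to Tbr1 per kilobase was −0.946 ± 0.0624 (SD, n = 4) with the empty vector, −2.35 ± 0.0405 under the unmutated, −2.82 ± 0.169 under the 2-mutation and −1.76 ± 0.160 with the 5-mutation hairpin. All 12 hairpin libraries were below all 4 empty-vector libraries. With the 5-mutation hairpin both genes fell, Cux2 further, and with the other hairpins Tbr1 rose while Cux2 fell.

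Bcl11b was measured at 61.2, 84.2, 68.9 and 71.4 CPM with the empty vector and 75.0, 95.5, 76.4 and 72.5 CPM with the unmutated hairpin. It was at 58.0, 81.2, 67.2 and 67.2 CPM with the 2-mutation hairpin and 64.6, 80.8, 68.7 and 72.3 CPM with the 5-mutation hairpin. All groups overlapped, and the library numbered 2 was the highest in each of them. The 95% intervals of the log2 fold change against the empty vector were −0.093 to 0.42, −0.32 to 0.19 and −0.25 to 0.26 (edgeR adjusted p = 0.31, 0.671 and 0.976), so a 2-fold change in either direction lies outside each interval. Without the libraries numbered 2, Bcl11b was lower with the 2-mutation than with the unmutated hairpin (−0.22, adjusted p = 0.00747), and with all libraries that difference was −0.225 ± 0.12 (adjusted p = 0.116). It also passed without replicate 2 of the 2-mutation hairpin (−0.315, adjusted p = 0.0275) and under total-count scaling (−0.34, adjusted p = 0.0317). With no filter on low counts Bcl11b was higher with the unmutated hairpin than with the empty vector (0.16, edgeR adjusted p = 0.0135). It was then lower with the 2-mutation (−0.225, adjusted p = 7.04e-05) and the 5-mutation hairpin (−0.15, adjusted p = 0.0145) than with the unmutated one. With the library number as a block in the fit, Bcl11b passed in the same comparisons (0.16, −0.225 and −0.155, edgeR adjusted p = 0.00363, 7.57e-05 and 0.00357).

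The libraries numbered 2 also had the highest summed level in each group of genes of striatal projection neurons, which express Bcl11b as well. Ppp1r1b (DARPP-32), a defining striatal gene, was at 42.8, 56.4, 49.1 and 23.3 CPM in these libraries, in the order empty vector, unmutated, 2-mutation and 5-mutation hairpin, and at 4.84 to 21.5 CPM in the other 12. The sum of 11 measured striatal genes was 242, 233, 280.7 and 171 CPM in them, against 120.0 to 219.8 CPM elsewhere. Single genes of this list did not all follow the sum. Drd1 was highest in the libraries numbered 2 only with the empty vector and the 2-mutation hairpin, and Foxp1 only with the 5-mutation hairpin. Penk was highest in them except with the unmutated hairpin (28.6 CPM, against 32.6 CPM in replicate 3). Gad2, which makes the inhibitory transmitter GABA, was highest in the libraries numbered 2 of each group, at 191, 66.8, 28.3 and 62.3 CPM. The part of these cells or genes in the level of Bcl11b was not tested. The CV of Bcl11b within groups was 9.61% to 14.0%, against 2.66% to 3.56% for Neurod2, and the genes closest to Bcl11b in pattern over the 16 libraries were Syt6 (r = 0.85) and the striatal peptide gene Penk (r = 0.82).

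**Figure D4:**
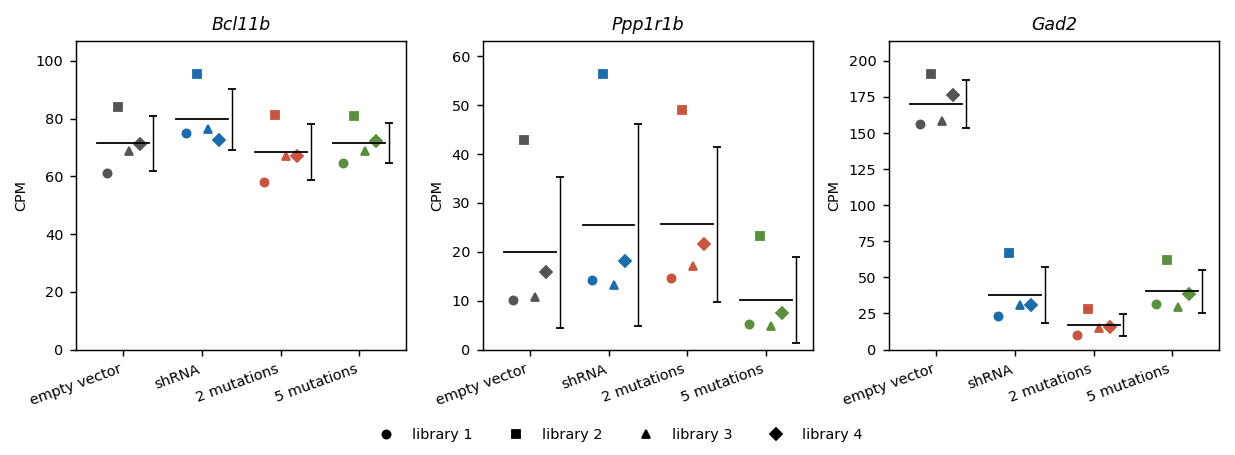
CPM of Bcl11b, of the striatal gene Ppp1r1b and of the inhibitory gene Gad2 in each library (points; the marker shape gives the library number), with group mean (bar) and SD (whisker, n = 4). The library numbered 2 (square) is the highest of its group in all 3 panels, with Bcl11b at 80.8 to 95.5 CPM.

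Mef2c fell with every hairpin. Mef2c (ENSMUSG00000005583.16; chromosome 13, 83504034 to 83667080, plus strand) was measured at 856, 934, 962 and 987 CPM with the empty vector and 497, 522.5, 569 and 559 CPM with the unmutated hairpin. It was at 331, 306, 334 and 320.2 CPM with the 2-mutation hairpin and 349, 392, 348 and 361 CPM with the 5-mutation hairpin. The groups did not overlap, and their order from high to low was empty vector, unmutated, 5-mutation and 2-mutation hairpin, the reverse of the order of Slc17a6. The mean fell from 935 ± 56.8 CPM (SD, n = 4) to 537 ± 33.3, 323 ± 12.65 and 362.5 ± 20.8 CPM under the unmutated, 2-mutation and 5-mutation hairpins. The log2 fold changes were −0.80 ± 0.053, −1.53 ± 0.054 and −1.37 ± 0.053 (edgeR adjusted p = 6.97e-11, 2.09e-16 and 2.99e-15). Both mutated hairpins gave lower levels than the unmutated hairpin (−0.73 and −0.57, edgeR adjusted p = 4.66e-11 and 5.31e-09). The mutated hairpins differed by 0.17 ± 0.053 (edgeR adjusted p = 0.00777), a difference that did not pass without the libraries numbered 2 (0.10, adjusted p = 0.133) and was 0.30 under total-count scaling.

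Genes for partners and targets of Mef2c moved in both directions. With the unmutated, 2-mutation and 5-mutation hairpins, 20.8%, 32.5% and 28.4% of all genes rose and 19.5%, 30.8% and 26.5% fell. Counts near these shares are no result about a list. Of 7 genes for the other MEF2 factors and the class IIa histone deacetylases that repress them, 1 rose and 1 fell with the unmutated hairpin, 2 rose and 3 fell with the 2-mutation hairpin, and 3 rose and 3 fell with the 5-mutation hairpin. Hdac9 fell with the 2-mutation hairpin (−0.98 ± 0.14, edgeR adjusted p = 3e-05) and rose with the 5-mutation hairpin (0.92 ± 0.14, adjusted p = 5.65e-05), and Hdac5 rose with the unmutated (0.26) and the 5-mutation hairpin (0.78). Of 10 genes known as MEF2 targets in neurons, 3 rose and 2 fell, 3 rose and 5 fell, and 4 rose and 4 fell under the unmutated, 2-mutation and 5-mutation hairpins. The neurotrophin gene Bdnf rose with the unmutated hairpin (1.56 ± 0.18, edgeR adjusted p = 1.23e-05), but not there alone. It ran from 23.7 to 27.6 CPM with the empty vector and from 61.6 to 109 CPM with the unmutated hairpin. With the 2-mutation hairpin it ran from 27.2 to 32.4 CPM, and with the 5-mutation hairpin from 77.1 to 114 CPM. Replicate 3 of the unmutated hairpin, with 109 CPM of Bdnf against 61.6 to 65.0 in the rest of its group, had the highest Slc17a6 of that group only. Its 56.88 CPM of Slc17a6 lay below every library of the mutated hairpins (75.99 to 148 CPM).

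Among the bHLH partners of the NeuroD factors, Tcf4 fell with the 2-mutation hairpin, the group in which Neurod1 and Neurod2 were highest. Tcf4, an E protein gene, was at 643.5 ± 30.2 CPM (SD, n = 4) with the empty vector and fell to 511 ± 41.4 CPM with the unmutated hairpin (log2 fold change −0.33 ± 0.056, edgeR adjusted p = 5.79e-05) and to 221 ± 12.7 CPM with the 2-mutation hairpin (−1.54 ± 0.058, adjusted p = 7.34e-16). Tcf3, another E protein gene, rose with the 2-mutation (0.82 ± 0.055 from 17.4 CPM) and the 5-mutation hairpin (0.53 ± 0.055). Its mean with the unmutated hairpin, 21.2 CPM, was also above the empty-vector mean. Id2, an inhibitor of bHLH factors, fell with the unmutated (−0.49 ± 0.073) and rose with the 5-mutation hairpin (0.51 ± 0.071). Its mean with the 2-mutation hairpin, 35.15 CPM, was also below the empty-vector mean of 43.0 CPM. In all, of 10 measured genes of bHLH partners and Id inhibitors, 3 rose and 4 fell under the unmutated, 1 rose and 4 fell with the 2-mutation, and 3 rose and 3 fell with the 5-mutation hairpin. Over all genes, 20.8% rose and 19.5% fell, 32.5% rose and 30.8% fell, and 28.4% rose and 26.5% fell in that order.

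Other transcription factor genes of cortical projection neurons moved in both directions. Of 26, 9 rose and 8 fell with the unmutated hairpin, 5 rose and 14 fell with the 2-mutation hairpin, and 9 rose and 8 fell with the 5-mutation hairpin, with medians of 0.047, −0.24 and 0.026. Over all genes, 20.8% rose and 19.5% fell, 32.5% rose and 30.8% fell, and 28.4% rose and 26.5% fell in that order. Etv1, a layer 5 factor gene, fell from 51.2 ± 2.795 to 14.2 ± 0.802 CPM (SD, n = 4) with the 2-mutation hairpin, and Zbtb18, a repressor needed for cortical neuron differentiation, fell there from 437 ± 19.7 to 164.5 ± 8.20 CPM. Lmo4, a LIM factor gene of upper layers, fell with all hairpins (−0.38, −1.10 and −1.22). Lhx2 fell (−1.60 ± 0.067) and Sox5, a deep-layer factor gene, rose (1.20 ± 0.061) with the 5-mutation hairpin (edgeR adjusted p = 2.55e-14 and 3.09e-13). Id2 and Bhlhe22 are in this list and in the preceding one. The progenitor factors of the glutamatergic lineage were low in all groups, with a summed level of 10 genes of 46.0 to 67.4 CPM over the 16 libraries. Of these, 3 rose and 0 fell, 2 rose and 2 fell, and 2 rose and 5 fell under the unmutated, 2-mutation and 5-mutation hairpins.

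With both mutated hairpins, more genes of mature excitatory neurons fell than rose. Of 16, 3 rose and 4 fell with the unmutated hairpin, 3 rose and 10 fell with the 2-mutation hairpin, and 2 rose and 14 fell with the 5-mutation hairpin, with medians of 0.007, −0.41 and −0.61. Over all genes, 20.8% rose and 19.5% fell, 32.5% rose and 30.8% fell, and 28.4% rose and 26.5% fell in that order. The summed level of the 16 genes ran from 6022 to 6483 CPM with the empty vector, 5729 to 6106 under the unmutated, 4162 to 4349 under the 2-mutation and 3983 to 4244 CPM with the 5-mutation hairpin. Camk2a, a synaptic kinase gene, fell from 807 ± 59.3 CPM (SD, n = 4) to 685.5 ± 25.0, 383 ± 22.7 and 431 ± 22.2 CPM (log2 fold change −0.235 ± 0.053, −1.07 ± 0.054 and −0.91 ± 0.054, edgeR adjusted p = 0.00113, 1.06e-13 and 3.36e-12). Hpca, a calcium sensor gene of hippocampus and cortex, fell with the unmutated (−1.34 ± 0.068) and the 5-mutation hairpin (−1.51 ± 0.068). Itpka, a kinase gene of dendritic spines, fell from 22.85 ± 1.53 to 5.47 ± 0.429 CPM with the 2-mutation hairpin. Camk2a and Itpka thus fell with the 2-mutation hairpin, with which Slc17a7, Slc17a6, Neurod1, Neurod2 and Tbr1 rose.

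Other genes that make or carry glutamate, Slc17a8 among them, moved in both directions. Of 12, 3 rose and 3 fell under the unmutated, 4 rose and 5 fell with the 2-mutation, and 4 rose and 6 fell with the 5-mutation hairpin. Over all genes, 20.8% rose and 19.5% fell, 32.5% rose and 30.8% fell, and 28.4% rose and 26.5% fell in that order. Glud1 and Got2, which interconvert glutamate in mitochondria, fell with the 5-mutation hairpin (−0.985 ± 0.060 and −0.78 ± 0.057, edgeR adjusted p = 6.58e-12 and 1.24e-10). With the 2-mutation hairpin their means, 140.4 and 359.0 CPM, were above the empty-vector means of 100.6 and 269.6 CPM. Of 8 measured factor genes of thalamic and other subcortical glutamatergic neurons, regions known for Slc17a6, 1 rose and 1 fell, 0 passed in either direction, and 0 rose and 3 fell in the same order of hairpins. Their summed level was 26.0 to 31.3 CPM with the empty vector, 32.5 to 44.5 CPM under the unmutated, 26.9 to 40.85 CPM under the 2-mutation and 10.35 to 17.4 CPM with the 5-mutation hairpin. Much of that sum was 1 gene, Prox1, a factor gene also known from hippocampal granule cells, with 19.9 ± 2.74, 26.75 ± 6.24, 23.98 ± 4.78 and 6.25 ± 1.275 CPM (SD, n = 4) in the same order of groups. Prox1 fell with the 5-mutation hairpin (−1.68 ± 0.20, edgeR adjusted p = 5.79e-06). The medians of the 8 log2 changes were above 0 with every hairpin (0.275, 0.34 and 0.16), opposite in sign to the summed level with the 5-mutation hairpin.

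Markers of other cell types moved with the groups. Beside them, 20.8%, 32.5% and 28.4% of all genes rose and 19.5%, 30.8% and 26.5% fell with the unmutated, 2-mutation and 5-mutation hairpins. Of 20 inhibitory neuron markers, 17 fell and 0 rose under the unmutated, 14 fell and 4 rose with the 2-mutation, and 18 fell and 0 rose with the 5-mutation hairpin, with medians of −1.35, −0.69 and −1.53. Their summed level was 1229 to 1413 CPM with the empty vector, 360.2 to 584 under the unmutated, 529 to 689 under the 2-mutation and 431 to 576 CPM with the 5-mutation hairpin, and Gad1, Gad2 and Slc32a1 were above 0 in every library. Gad1 and Slc32a1, the vesicular transporter gene of GABA neurons, fell with every hairpin (Gad1 from 221 ± 14.55 CPM to 81.3 ± 17.6, 64.5 ± 13.4 and 137 ± 18.5, and Slc32a1 from 98.9 ± 5.19 to 35.2 ± 10.3, 74.7 ± 10.6 and 31.2 ± 4.39). Of 20 pan-neuronal genes, 0 rose and 13 fell, 8 rose and 9 fell, and 4 rose and 10 fell in the same order. Rbfox3 (NeuN) fell with the 5-mutation hairpin from 150 ± 2.61 to 31.35 ± 0.873 CPM (log2 fold change −2.26 ± 0.043, edgeR adjusted p = 3.78e-20), as Slc17a7 did, and by 0.50 and 0.33 on the log2 scale with the unmutated and the 2-mutation hairpin. Of 13 measured astrocyte markers, 2 rose and 2 fell, 1 rose and 7 fell, and 0 rose and 5 fell, with a summed level of 1257 to 1511, 1068 to 1434, 1016 to 1247 and 658.5 to 910.3 CPM. The oligodendrocyte lineage sum was 59.05 to 71.2, 86.7 to 106, 55.1 to 62.4 and 88.1 to 106.5 CPM in that order. With the 5-mutation hairpin 2 of its 7 measured genes rose and 2 fell. Mbp, a myelin gene, rose there from 25.8 ± 2.37 to 68.5 ± 5.62 CPM. Olig2, a factor gene of the lineage, fell there from 5.205 ± 0.8296 to 2.046 ± 0.5198 CPM (−1.361 ± 0.164, edgeR adjusted p = 3.1e-07). The part of these shifts in the changes of the 9 genes was not tested.

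**Figure D5:**
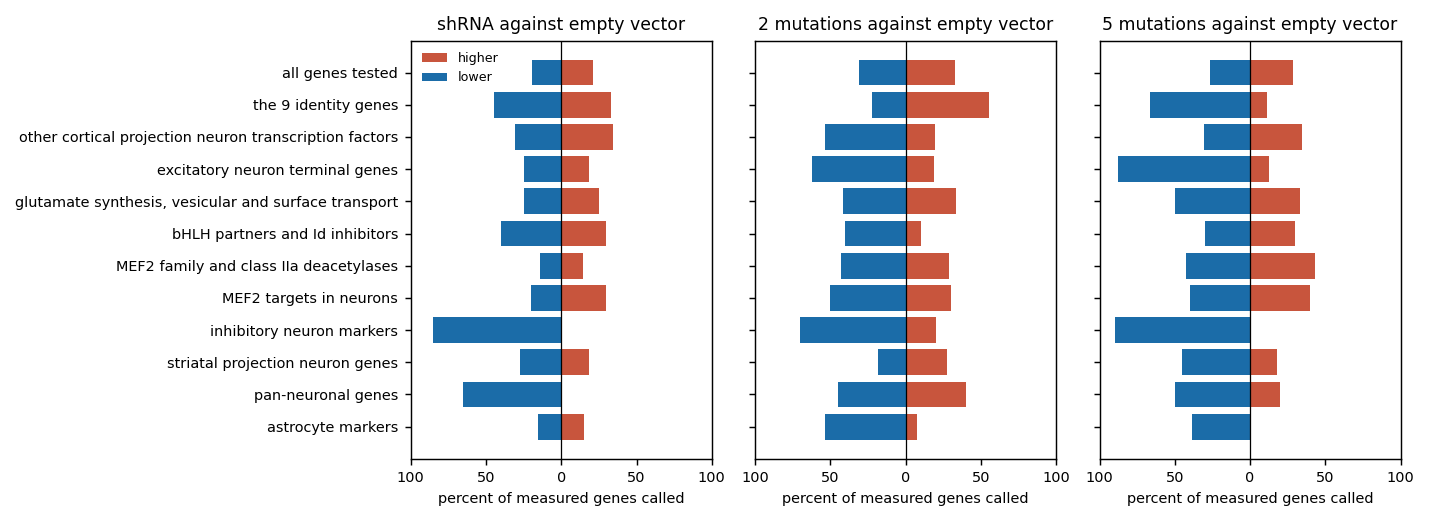
Percent of the measured genes of each list called higher (right) or lower (left) with each hairpin against the empty vector, with all genes tested in the top row. Inhibitory neuron markers were lower in 17, 14 and 18 of 20, and excitatory neuron terminal genes were lower in 14 of 16 with the 5-mutation hairpin.

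Each of the 9 genes had close companions in pattern over the 16 libraries, taken as the 2 genes with the highest Pearson correlation of log2 CPM among 10817 genes searched. The libraries share groups, so these values largely describe the 4 group levels. For Slc17a7 they were Hnrnpul1 (r = 0.997; means of 128, 123, 149 and 45.1 CPM with the empty vector, unmutated, 2-mutation and 5-mutation hairpins) and the neuronal RNA-binding protein gene Elavl3 (0.996). For Slc17a6 they were Tmem184b (0.99) and Nkrf (0.983), for Neurod1 Gpatch2 (0.988) and Asb8 (0.988), and for Neurod2 B4galnt1 (0.994) and Fam53c (0.992). For Neurod6 they were Pitpna (0.953) and Tbc1d7 (0.946), and for Tbr1 the guidance gene Sema3c (0.987; 18.3, 32.6, 65.0 and 10.5 CPM) and Retreg3 (0.985). For Cux2 they were the calcium channel subunit gene Cacna2d2 (0.982; 43.7, 8.78, 10.9 and 7.79 CPM) and Galntl6 (0.98), and for Mef2c the adhesion gene Cadm3 (0.99; 773, 494, 305 and 369 CPM) and Anks1b (0.986). Among the 9 genes themselves, Cux2 and Mef2c had r = 0.80 and Slc17a6 and Mef2c r = −0.91, and within groups, as deviations from the group means, these were 0.24 and 0.395. Slc17a7 and Neurod6 had r = −0.42 over all libraries and 0.75 within groups, and Cux2 and Bcl11b had 0.055 and 0.83, both being highest in the libraries numbered 2 of each hairpin group. Slc17a7 was lowest in the library numbered 2 of every group, and Neurod6 in each group but the unmutated hairpin. These r values were not computed without those libraries.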

How the data were processed

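RNA of 16 mouse libraries in 4 groups was analysed from the table of raw counts that the authors deposited, whole numbers per Ensembl gene made with featureCounts per the submitters' processing notes. These notes name STAR 2.7.2b, the build GRCm38.p6, edgeR, cutadapt 1.15, Trim Galore 0.6.0 and bcl2fastq 2.20.0.422. Per the labels' protocols, total RNA was depleted of ribosomal RNA and made into directional dUTP libraries. The strand setting, the annotation release and the handling of reads with several matches are not given in the sources used here. Symbols and positions came from GENCODE vM21 (GRCm38): 55154 of 55335 identifiers matched and 181 did not. Exon lengths are unions over transcripts.

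Genes were filtered with filterByExpr (19479 kept), scaled with TMM and tested in edgeR 4.0.16, under R 4.3.3, by robust quasi-likelihood with all 16 libraries, 1 coefficient for each group and 2-sided tests, at a Benjamini-Hochberg adjusted p below 0.05. SE is the log2 fold change divided by the root of F. Alternatives were DESeq2 1.42.0, RLE factors, total-count scaling, no filter, a replicate block, omission of Gm26917 and Gm42418, protein-coding genes only, a fit of the compared groups alone and each library left out. No replicate was a copy of another: the chi-square of their counts over its degrees of freedom was 3.48 to 24.5. The pipeline was tested on simulated data.

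The 9 genes and the context lists were chosen with earlier results of these data known. Besides the 9 genes, up to 3 called genes with the smallest p of each list, the markers Gad1, Gad2, Slc32a1, Rbfox3, Gfap, Olig2 and Aif1, and the 2 genes closest in pattern to each of the 9 could be named (log2 CPM with a prior count of 2 and a mean of at least 2). Ppp1r1b, Rtn4, Npas4, Cerkl, Cldn5, C1qa, Sox10, Gm26917 and Gm42418 fall outside that rule and were chosen after their values were seen. A few genes of the lists are not reported here by name. Promoter sequences came from RefSeq (GRCm38.p6). Oligodendrocyte lineage genes rose in 4, 1 and 2 and fell in 0, 2 and 2 of 7 measured with the unmutated, 2-mutation and 5-mutation hairpins. Microglial genes rose in 0, 1 and 0 and fell in 1, 2 and 3 of 4, endothelial and mural genes rose in 0, 0 and 3 and fell in 1, 1 and 2 of 7, and striatal genes rose in 2, 3 and 2 and fell in 3, 2 and 5 of 11. Of all genes tested, 20.8%, 32.5% and 28.4% rose and 19.5%, 30.8% and 26.5% fell in the same order.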

Additional observations from a re-analysis of the deposited data

Results flagged for a closer look

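Slc17a6 stood at 56.88 CPM in replicate 3 of the unmutated hairpin, far from the other 3 libraries of that group (32.8 to 33.65 CPM) by Dixon's test at the 95% level. This was 1 library in 36 groups of 4 tested (9 genes in 4 groups), and chance flags about 1 in 20 groups. The same library had 34.6 CPM of Npas4, an activity-regulated factor gene, against 12.6 to 17.0 CPM in the rest of its group. Replicate 3 of the 5-mutation hairpin had 85.3 CPM of Npas4, against 18.3 to 27.2 CPM in the rest of its group. Its Slc17a6 was at 85.67 CPM, against 75.99 to 83.79 CPM in that rest. The part of activity-regulated genes in the level of Slc17a6 was not tested.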

How the results depend on the processing

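The number of genes called and the number of the 9 genes called stayed within 1.5 times their reported value in all 6 comparisons under every alternative run. With each library left out in turn, 7 of the 9 were called for the unmutated and the 2-mutation hairpin against the empty vector, and 7 to 8 in the other comparisons. Of 19732 to 19895 genes tested in these fits, 7011 to 7512, 11733 to 12066 and 10129 to 10889 were called against the empty vector. Between hairpins 11706 to 11998, 10124 to 10854 and 12342 to 13164 were called. Of the single-gene values under the alternatives, 929 kept their direction and side of the threshold, 27 passed newly, 5 no longer passed and 11 changed sign. The values that changed sign had not passed. They were Bcl11b with the 5-mutation hairpin against the empty vector (−0.018 by DESeq2, −0.015 with RLE factors, −0.013 without Gm26917 and Gm42418, −0.007 with protein-coding genes only, and −0.064 to 0.092 with 1 library left out, −0.058 and −0.013 among them). They were also Bcl11b with the 2-mutation hairpin (−0.153 to 0.024, 0.011 among them) and between the mutated hairpins (−0.006), and Neurod6 with the 2-mutation hairpin (0.015), each with 1 library left out. The 5 lost calls stand in the report with their genes. Without replicate 3 of the unmutated and of the 5-mutation hairpin, 7 of the 9 genes were called in each comparison. Without the libraries numbered 2, the counts were 7, 7 and 6 against the empty vector and 9, 8 and 6 between hairpins. Both alternatives were chosen after the data were seen. Over all 19835 genes tested in the former, 4019, 6505 and 5411 were higher and 3779, 6172 and 5216 lower against the empty vector. Between hairpins 6104, 5416 and 6776 were higher and 5963, 5193 and 6439 lower. In the latter, of 19402 genes, 3531, 6023 and 5308 were higher and 3443, 5565 and 4844 lower against the empty vector. Between hairpins the values were 5949, 5077 and 6005 higher and 5725, 4661 and 5958 lower. With 4 libraries a group, the 95% interval of Bcl11b spans about 0.51 on the log2 scale.

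The labels give every group the same library numbers but no shared culture. Libraries with the same number deviated together (r over 0.1) in 20 of 24 pairs of libraries, with a lowest r of −0.479 for number 3, so they were not treated as paired, although 14 of 16 libraries correlated best with their own number. With a replicate block, 8589, 12724 and 11171 genes passed with the unmutated, 2-mutation and 5-mutation hairpins against the empty vector (7859, 12324 and 10697 without it), and 9, 7 and 7 of the 9 genes. Between hairpins it called 9 for the 2-mutation and 9 for the 5-mutation against the unmutated hairpin, and 8 between the mutated ones. Of all 19479 genes it called 12616, 11245 and 13232 in these comparisons between hairpins. Bcl11b then passed with the unmutated hairpin against the empty vector (0.16, edgeR adjusted p = 0.00363) and with the 2-mutation and 5-mutation hairpins against the unmutated one (−0.225 and −0.155, adjusted p = 7.57e-05 and 0.00357). Slc17a7 passed with the unmutated hairpin against the empty vector (−0.096, adjusted p = 0.0351), Cux2 with the 2-mutation and 5-mutation against the unmutated hairpin (0.195 and −0.138, adjusted p = 0.00127 and 0.0204), and Neurod6 between the mutated hairpins (0.095, adjusted p = 0.0447).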
